A study of Mus musculus with 2 samples.

Results

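Alarmins are cytokines that epithelial, endothelial and myeloid cells release on damage or infection, and they act on lymphocytes that sit in the tissue. IL-33 binds ST2, the product of *Il1rl1*, with the accessory chain IL-1RAP. IL-25 binds IL-17RB paired with IL-17RA, TSLP binds the receptor encoded by *Crlf2* together with the IL-7 receptor chain, and IL-18 binds the product of *Il18r1* with the accessory chain IL-18RAP. Group 2 innate lymphoid cells (ILC2s) are known for responding to IL-33, IL-25 and TSLP, whereas IL-18 is best known for acting on NK cells and on type 1 T cells. The 10 genes described here are the 4 ligands *Il33*, *Il25*, *Tslp* and *Il18* and the 6 receptor chains *Il1rl1*, *Il1rap*, *Il17rb*, *Il17ra*, *Crlf2* and *Il18r1*, taken by symbol from the 31053 genes of both count matrices.

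Kidney cells of MRL-*lpr* mice, a strain that carries the *Fas* lpr mutation and develops lupus-like nephritis with age, were measured by single-cell RNA-seq in 2 libraries, 1 from old and 1 from young mice. Both libraries came from pooled kidneys, both carry the mutation, and neither is from an unmutated strain. Leukocytes were enriched on a density gradient and then with a pan-ILC kit, and live cells were sorted, so that the share of a cell class in a library is not its frequency in the kidney. With 1 library per age no difference between ages could be tested, and the intervals below cover the counting of unique molecular identifiers (UMIs) only, not the spread between mice.

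After barcodes under 200 genes or over 20% mitochondrial UMIs had been dropped, there were 11429 young cells with a median of 7881 UMIs and 10232 old cells with a median of 6933 UMIs. Only 26 kept barcodes occurred in both libraries. The study's methods name female mice, but 50.8% of young and 40.6% of old cells held a UMI of a Y-linked gene and none of *Xist*, against 14.6% and 29.1% with *Xist* only. The main values are therefore also given for these 2 kinds of cells. Cells were assigned to 15 classes by marker gates that used none of the 10 genes. A further class outside these gates, of 305 young and 70 old cells, had ILC2 markers with a CD3 UMI. Cells of a single gate and of this class together were 87.9% of young and 89.4% of old cells. ILC2-gated cells had no CD3 UMI and at least 3 of the 9 markers *Gata3*, *Rora*, *Il7r*, *Il2ra*, *Areg*, *Il5*, *Il13*, *Klrg1* and *Nmur1*. They numbered 1292 in the young and 325 in the old library, which held 508 and 4006 T cells, 236 and 333 macrophages or monocytes, and 6615 and 3588 proximal tubule (PT) cells.

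All 10 genes had UMIs in the young library and 9 of them in the old library, where *Il25* had none. The unit of a level is CPM, UMIs of the gene per 1000000 UMIs of the class, with exact Poisson 95% intervals. The libraries count 3′ ends, so that a CPM is not divided by gene length, and the isoforms of a gene, such as the membrane and the soluble form of ST2, were counted together.

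**Figure D1:**
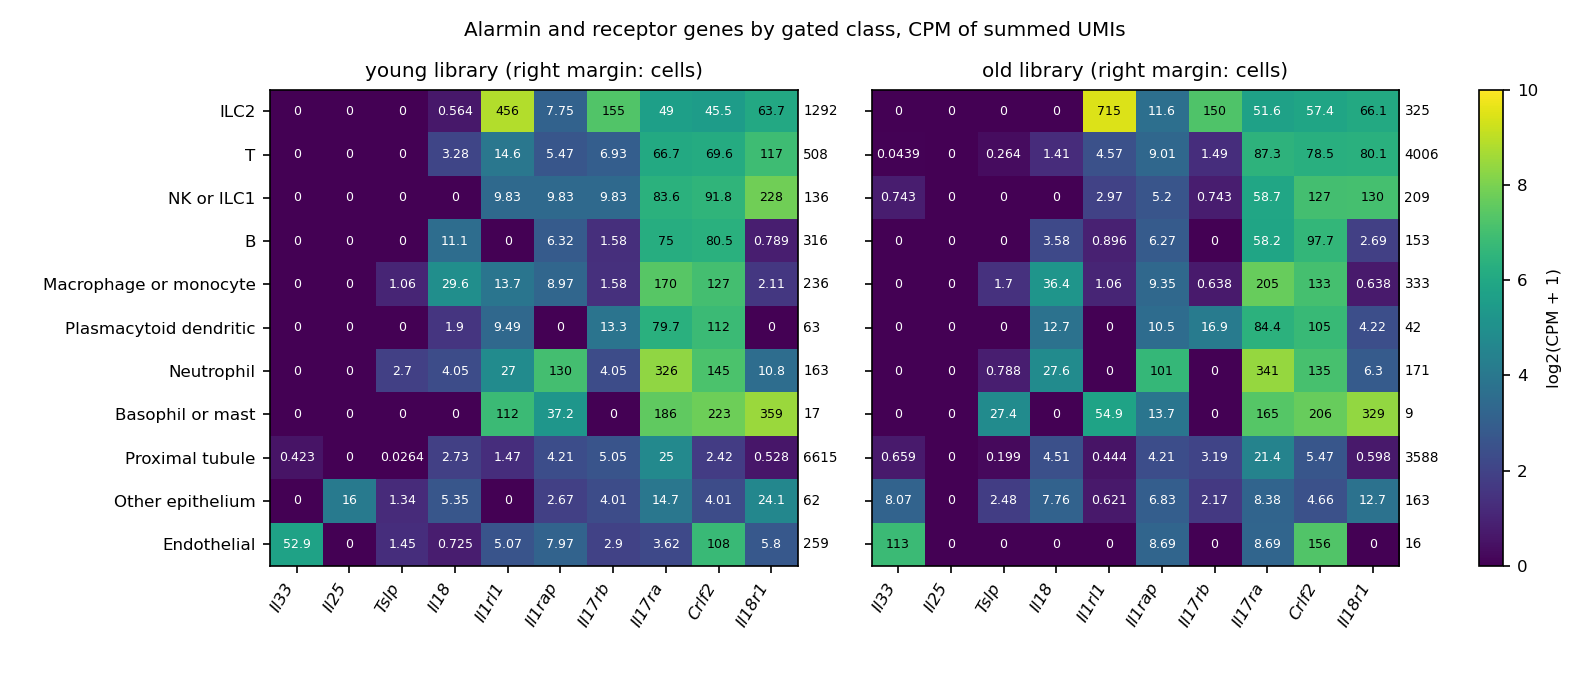
CPM of summed UMIs for the 10 genes (columns) in 11 gated classes (rows) of the young and the old library, with the cell number of each class in the right margin and color on a log2(CPM + 1) scale. *Il1rl1* and *Il17rb* were highest in ILC2-gated cells of both libraries, *Il1rap* and *Il17ra* in neutrophils, and *Il33* in endothelial cells.

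*Il33*, the ligand of ST2, was found in nonimmune cells. It had 147 UMIs in the young and 106 UMIs in the old library. All gated leukocytes together held 0 UMIs in the young library, where 3 UMIs would be 0.178 CPM, and 2 UMIs in the old library. Endothelial cells held 73 UMIs in 54 of 259 young cells, which is 52.9 CPM (41.5 to 66.5), and 13 UMIs in 5 of 16 old cells, which is 113 CPM (60.1 to 193). The log2 ratio of 1.09 (0.12 to 1.96) was 0.78 (-0.41 to 1.79) without the highest cell of each library, 0.83 (-0.87 to 2.17) in cells with a Y-linked UMI and -1.21 (-6.66 to 1.64) in cells with *Xist*, the last from 1 old UMI. The PT cells, with most of the UMIs of both libraries, had 0.423 CPM (0.312 to 0.560) and 0.659 CPM (0.477 to 0.888), so that the endothelial level was 125-fold higher in the young and 171-fold higher in the old library. PT cells nevertheless held 32.7% of the young and 40.6% of the old *Il33* UMIs, against 49.7% and 12.3% in endothelial cells. The only stromal cell of each library held 2 UMIs of *Il33*.

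Besides the PT cells, the old library held an epithelial source of *Il33* that rested on single cells. Its other epithelial cells were gated on at least 3 of 11 markers. These were genes of the distal nephron and collecting duct together with broader epithelial genes, among them *Epcam*, *Krt8* and *Krt18*. A cell could thus pass without a marker of those segments. The 163 cells of this gate held 26 UMIs, and 23 of them lay in 1 cell. That cell had no UMI of *Umod* or *Ptprc* and had 196 UMIs of *Krt7*, 34 of *Krt5* and 79 of *Psca*, keratins and a surface protein known from the urothelium and other lining epithelia. A further 16 UMIs lay in 1 old cell that passed no gate and held 149 UMIs of *Upk3a*, a urothelial plaque protein, and 183 of *Krt5*. The young library had 0 UMIs of *Il33* in 62 other epithelial cells, which allows up to 4.01 CPM at 3 UMIs. Over the 5 nonimmune gates together, *Il33* was at 1.06 CPM (young) and 1.22 CPM (old), a log2 ratio of 0.20 (-0.21 to 0.62). This ratio became -0.21 (-0.68 to 0.25) without the highest cell of each library and -1.02 with the mean of the CPM of each cell. It was 0.03 (-0.57 to 0.61) in cells with a Y-linked UMI and 0.84 (-0.03 to 1.74) in cells with *Xist*.

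*Il25*, the ligand of IL-17RB that is known as a product of tuft cells, rested on 1 cell. All 12 of its UMIs lay in 1 young cell of the other epithelium gate with 11003 UMIs in all. The same cell held 12 UMIs of *Trpm5*, the cation channel of tuft and taste cells, 4 of *Avil*, 1 of *Pou2f3*, the tuft cell transcription factor, 7 of *Ltc4s*, 72 of *Krt8* and 53 of *Krt18*, and none of *Ptprc*. These genes were looked up after the cell had been found. The 163 other epithelial cells of the old library held 0 UMIs of *Il25*, a limit of 0.931 CPM.

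*Tslp*, which acts on dendritic cells and type 2 lymphocytes, was close to the limit of detection in all classes, with 16 UMIs in the young and 44 in the old library. Macrophages or monocytes held 2 and 8 of these UMIs, other epithelial cells 1 and 8, and PT cells 3 and 13. Of the 13 UMIs in old PT cells, 8 lay in 1 cell that also held 76 UMIs of *Epcam* and 102 of *Krt8*. The old PT level of 0.199 CPM against 0.0264 CPM in the young library therefore depended on 1 cell.

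*Il18*, which is made as a precursor and cleaved by caspase-1, was the most widely found of the 4 ligands, with 468 UMIs in the young and 689 in the old library. Macrophages or monocytes had 29.6 CPM (22.3 to 38.4) and 36.4 CPM (31.1 to 42.2), and PT cells 2.73 CPM (2.43 to 3.05) and 4.51 CPM (4.01 to 5.05). The macrophage level was thus 10.8-fold higher than the PT level in the young and 8.07-fold higher in the old library. PT cells nevertheless held 66.2% of the young and 42.7% of the old *Il18* UMIs, since they were 6615 of 11429 young and 3588 of 10232 old cells with a median of 14168 and 15162 UMIs each. No UMI of *Il18* was seen in the 136 young and 209 old NK or ILC1 cells, and the ILC2-gated cells held 4 and 0.

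Between the libraries, *Il18* was higher in old PT cells by a log2 ratio of 0.72 (0.49 to 0.96). Its UMIs were spread over many cells there, 287 in the young and 268 in the old library, and no PT cell held more than 3. The ratio was 0.57 (0.28 to 0.85) in cells with a Y-linked UMI and 2.14 (1.01 to 3.40) in cells with *Xist*, the latter from 9 young UMIs. In macrophages or monocytes the log2 ratio was 0.30 (-0.14 to 0.76), which included 0, and with clusters in place of gates it was 0.40 (0.05 to 0.76), which did not. Old neutrophils had 27.6 CPM against 4.05 CPM in young ones, but 16 of their 35 UMIs came from 1 cell.

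Among the other epithelial cells, *Il18* was found almost entirely in cells without *Umod*, the product of the thick ascending limb. Cells without a *Umod* UMI, 31 in the young and 40 in the old library, had 11.3 CPM (3.08 to 29.0) and 35.6 CPM (22.8 to 53.0). Cells with a *Umod* UMI held 0 young UMIs and 1 old UMI of *Il18*. A young cell in the T gate with 6 of that gate's 9 *Il18* UMIs also held 225 UMIs of *Upk3a* and 92 of *Krt8*, so that the 3.28 CPM of young T cells did not come from T cells alone.

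**Figure D2:**
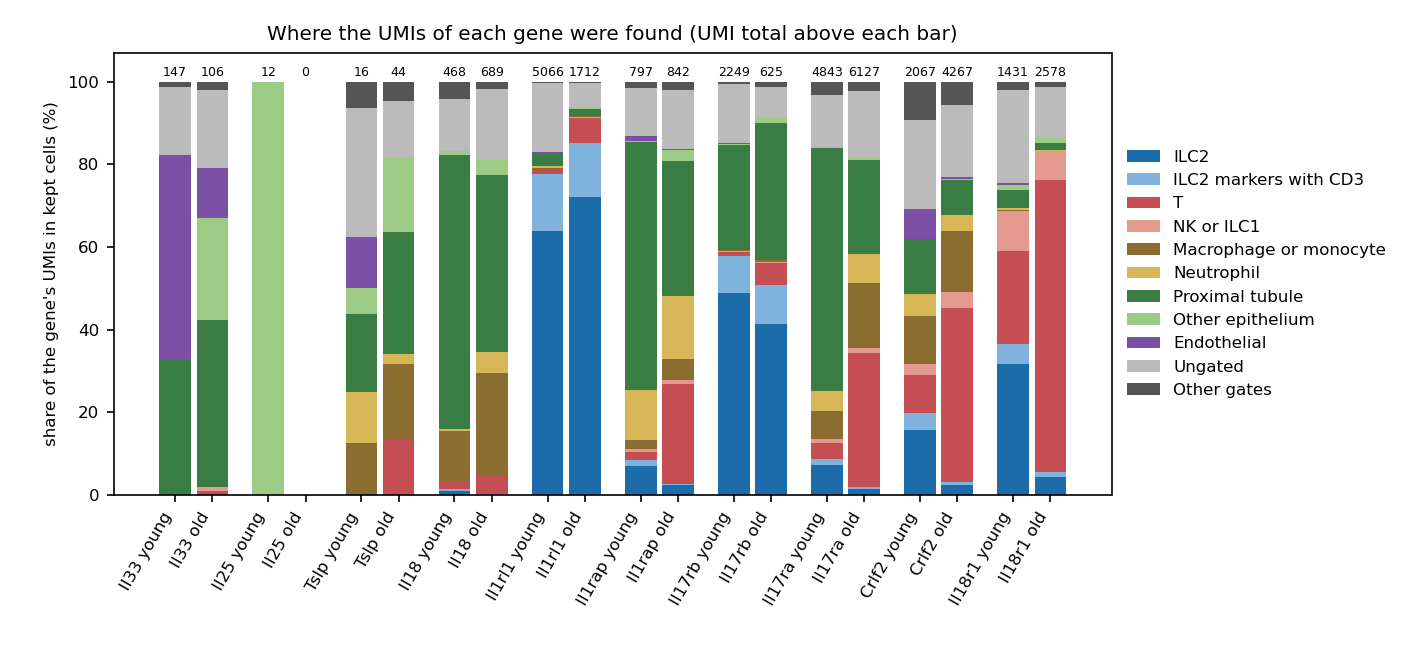
Share of each gene's UMIs (percent, y axis) found in each gated class of the young and the old library, with the gene's UMI total above the bar. ILC2-gated cells held 63.9% and 72.0% of the *Il1rl1* UMIs, and PT cells held 66.2% and 42.7% of the *Il18* UMIs.

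*Il1rl1*, the gene of the IL-33 receptor ST2, marked the ILC2-gated cells of both libraries. Its level was 456 CPM (441 to 472) in 1292 young and 715 CPM (676 to 756) in 325 old ILC2-gated cells. T cells had 14.6 CPM and 4.57 CPM, which put the ILC2 level 31.3-fold above T cells in the young and 157-fold above them in the old library. ILC2-gated cells held 63.9% of all *Il1rl1* UMIs with 4.87% of all UMIs of the young library, and 72.0% with 1.45% in the old library. A further 13.8% and 13.1% lay in cells with ILC2 markers and a CD3 UMI, where the level was 401 CPM and 468 CPM.

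The log2 ratio of *Il1rl1* between old and young ILC2-gated cells was 0.65 (0.55 to 0.74). At median depths of 5047.5 and 5396 UMIs, 17.8% of young and 35.1% of old ILC2-gated cells held 5 or more UMIs of *Il1rl1*. When each cell was thinned to 1000 UMIs, 35.2% (32.6 to 37.9) of young and 43.7% (38.2 to 49.4) of old ILC2-gated cells held a UMI, against 0.392% and 0.0282% of PT cells, whose median depth was higher. Before thinning the shares of ILC2-gated cells were 77.9% and 85.2%. The ratio was 0.83 (0.71 to 0.95) in cells with a Y-linked UMI and 0.25 (0.03 to 0.47) in cells with *Xist*, so that its size depended on the kind of cell compared. The 9 PT markers summed to 707 CPM in the young ILC2-gated cells and to 348 CPM in the old ones, and the 9 ILC2 markers to 4781 CPM (young) and 6564 CPM (old). The part of these differences in the *Il1rl1* ratio was not tested.

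In T cells and PT cells *Il1rl1* was lower in the old library, unlike in the cells with ILC2 markers and a CD3 UMI given above. Macrophages or monocytes were lower too, at 13.7 CPM (young) and 1.06 CPM (old), and neutrophils held 20 young UMIs and 0 old UMIs. Cells that passed several gates had 70.7 CPM (young) and 7.57 CPM (old), and cells that passed no gate 37.7 CPM and 3.34 CPM. B cells held 0 young UMIs and 1 old UMI, and other epithelial cells 0 and 2. T cells with *Cd4* and no *Foxp3* UMI had 36.7 CPM (22.1 to 57.2) in young and 10.8 CPM (8.34 to 13.7) in old cells, and T cells with a *Foxp3* UMI had 12.9 CPM and 9.52 CPM from 3 and 8 UMIs. PT cells differed in the same direction, with 1.47 CPM (1.26 to 1.71) and 0.444 CPM (0.298 to 0.638). The share of ILC2-gated cells among the UMIs of the library, given above, was lower in the old library too. The 9 ILC2 markers summed in T cells to 756 CPM (young) and 507 CPM (old), and in PT cells to 92.9 CPM (young) and 106.7 CPM (old). The part of the share or of the markers in these levels was not tested. Basophils or mast cells had 112 CPM (51.0 to 212) in 17 young cells and 54.9 CPM (14.9 to 140.5) in 9 old cells.

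The start of *Il1rl1* is shown because the gene had the highest level of the 10 in any class. *Il1rl1* lies on the plus strand of chromosome 1 (GRCm38, chr1:40429570-40465415), directly before *Il18r1* on the same strand (chr1:40465552-40500854), and no protein-coding gene on the same strand overlaps any of the 10. RefSeq (GRCm38.p6) start windows, from 250 bases before to 50 after a start, were found for 7 of the 10 genes. *Il1rl1* has 2 of them, an upstream start at chr1:40429320-40429619 and a downstream start at chr1:40439379-40439678, both on the plus strand, and the first window of *Il18r1* is at chr1:40465302-40465601 on the plus strand. GATA3 is the transcription factor by which ILC2s are defined, and capitals mark matches on either strand to the GATA-type motifs of 6 letters. These are AGATAA with its variant form AGATAG, and likewise TGATAA with its variant form TGATAG, and no matches overlap in these windows.
Il1rl1 upstream start: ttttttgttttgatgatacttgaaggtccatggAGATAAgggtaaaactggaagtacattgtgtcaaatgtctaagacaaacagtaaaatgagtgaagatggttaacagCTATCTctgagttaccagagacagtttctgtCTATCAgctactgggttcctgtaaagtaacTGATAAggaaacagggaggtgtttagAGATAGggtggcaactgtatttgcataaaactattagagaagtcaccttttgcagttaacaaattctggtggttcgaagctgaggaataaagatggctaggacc
Il1rl1 downstream start: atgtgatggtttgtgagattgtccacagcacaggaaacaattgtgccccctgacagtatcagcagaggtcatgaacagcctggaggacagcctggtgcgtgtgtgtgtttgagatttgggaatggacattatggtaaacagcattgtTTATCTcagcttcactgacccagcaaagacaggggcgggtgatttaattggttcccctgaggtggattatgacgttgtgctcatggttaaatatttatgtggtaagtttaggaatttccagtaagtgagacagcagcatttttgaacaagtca
Il18r1 first start: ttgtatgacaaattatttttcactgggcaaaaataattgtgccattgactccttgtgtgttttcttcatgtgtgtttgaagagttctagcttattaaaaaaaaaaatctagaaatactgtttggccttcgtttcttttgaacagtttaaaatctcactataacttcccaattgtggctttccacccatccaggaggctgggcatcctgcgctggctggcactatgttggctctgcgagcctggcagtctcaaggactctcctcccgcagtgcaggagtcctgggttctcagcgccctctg

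The upstream *Il1rl1* window held 5 of these motifs, at -217, -141, -110, -80 and -54 bases from the start, and the downstream window held 1, at -103. None of the windows of the other 6 genes held one, *Il17rb* (chr14:30008847-30009146, minus strand) and *Il18r1* included. Of 32851 mouse windows of 300 bases, 29.8% held at least 1 such motif and 0.332% held 4 or more. A match describes the letters only, and no binding was measured.

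*Il17rb*, the chain that gives the IL-25 receptor its specificity, was also highest in ILC2-gated cells but did not differ between the libraries beyond counting error. Its level there was 155 CPM (146 to 164) in young and 150.3 CPM (133 to 169.7) in old cells, a log2 ratio of -0.04 (-0.25 to 0.15). The ratio was -0.07 (-0.34 to 0.19) in cells with a Y-linked UMI and -0.11 (-0.57 to 0.33) in cells with *Xist*. ILC2-gated cells exceeded T cells 22.4-fold in the young and 101-fold in the old library. Plasmacytoid dendritic cells had 13.3 CPM and 16.9 CPM from 7 and 8 UMIs.

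PT cells held *Il17rb* in another proportion to *Il1rl1* than ILC2-gated cells did. There were 0.340 (0.317 to 0.364) *Il17rb* UMIs per *Il1rl1* UMI in young and 0.210 (0.183 to 0.240) in old ILC2-gated cells, against 3.43 (2.88 to 4.10) and 7.17 (4.85 to 10.98) in PT cells. In PT cells with no UMI of any of the 9 ILC2 markers the proportion was 10.7 (5.78 to 22.1) in 2811 young and 19.0 (4.91 to 163) in 1311 old cells. The PT level itself was low, 5.05 CPM (4.64 to 5.48) in young and 3.19 CPM (2.77 to 3.65) in old cells, with a log2 ratio of -0.66 (-0.90 to -0.43). Even so, PT cells held 573 of the 2249 young and 208 of the 625 old *Il17rb* UMIs.

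*Il18r1*, the binding chain of the IL-18 receptor, was shared among NK or ILC1 cells, T cells, ILC2-gated cells and rarer cells. NK or ILC1 cells had 228 CPM (191 to 269) in young and 130.1 CPM (112 to 151) in old cells, and T cells 117 CPM (105 to 131) and 80.1 CPM (76.5 to 83.9). With 1 more marker in the gate the NK or ILC1 level was 176 CPM (young) and 120 CPM (old), and in clusters 147.5 CPM and 105.5 CPM. ILC2-gated cells had 63.7 CPM (58.0 to 69.9) and 66.1 CPM (54.6 to 79.5), a level that depended on how the cells were called. It was 30.8 CPM (26.8 to 35.3) and 35.1 CPM (26.5 to 45.7) with 1 more marker in the gate, and 13.5 CPM (11.3 to 16.0) and 28.1 CPM (21.3 to 36.4) in clusters, whereas *Il1rl1* in the same cells stayed between 452 CPM and 485 CPM (young) and between 715 CPM and 758 CPM (old). The NK or ILC1 level was above the ILC2 level by a log2 ratio of 1.84 (1.55 to 2.12) when young and 0.98 (0.63 to 1.33) when old. With 1 more marker in the gates these were 2.51 (2.14 to 2.88) and 1.77 (1.32 to 2.25), and with clusters 3.45 (3.01 to 3.87) and 1.91 (1.47 to 2.37). Both settings were added for these values after the data had been seen. Among the gates, before T cells were divided, basophils or mast cells were highest, at 359 CPM (241 to 516) and 329 CPM (211 to 489.8), but numbered only 17 and 9. PT cells were at 0.528 CPM and 0.598 CPM, and B cells held 1 and 3 UMIs.

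Among T cells the direction of the *Il18r1* difference depended on the subset. T cells with *Cd4* and neither *Foxp3* nor *Cd8* UMIs were higher in the old library, at 124 CPM (116 to 133) in 1068 cells against 63.7 CPM (43.8 to 89.4) in 98 young cells, a log2 ratio of 0.97 (0.46 to 1.51). That ratio was 1.14 (0.41 to 1.97) in cells with a Y-linked UMI and 1.68 (0.12 to 3.96) in cells with *Xist*, the latter from 3 young UMIs. T cells with no coreceptor UMI and fewer than 2 gamma-delta markers were lower in the old library, at 28.5 CPM (24.7 to 32.7) in 1587 cells against 144 CPM (119 to 171) in 177 young cells, a log2 ratio of -2.33 (-2.67 to -1.997). MRL-*lpr* mice are known for accumulating T cells without CD4 and CD8, and a missing coreceptor UMI in a single cell does not show that the protein is missing.

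The remaining T cell subsets differed less between the libraries than the T cells with no coreceptor UMI. T cells with 2 or more of the gamma-delta markers *Trdc*, *Tcrg-C1*, *Tcrg-C2* and *Trdv4* had the highest T cell level, 375 CPM (298 to 467) in 40 young and 195 CPM (144 to 259.9) in 33 old cells. Their log2 ratio of -0.94 (-1.49 to -0.40) was -0.10 (-1.38 to 1.37) with clusters in place of gates, from 7 and 22 UMIs. T cells with *Cd8a* or *Cd8b1* had 70.6 CPM (54.3 to 90.1) and 77.2 CPM (71.1 to 83.6), a log2 ratio of 0.13 (-0.24 to 0.52) that was 0.49 (0.09 to 0.93) with clusters in place of gates, 0.72 (0.18 to 1.30) in cells with a Y-linked UMI and -0.34 (-1.35 to 0.89) in cells with *Xist*. T cells with *Foxp3*, the factor of regulatory T cells, had 90.4 CPM (56.0 to 138) and 121 CPM (98.9 to 147). For T cells as a whole the log2 ratio was -0.55 (-0.72 to -0.37), with -0.30 (-0.54 to -0.05) in cells with a Y-linked UMI and -0.94 (-1.32 to -0.53) in cells with *Xist*. With clusters in place of gates it was -0.19 (-0.39 to 0.01), which no longer excluded 0. The T cells with no coreceptor UMI were 177 of 508 young and 1587 of 4006 old T cells.

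**Figure D3:**
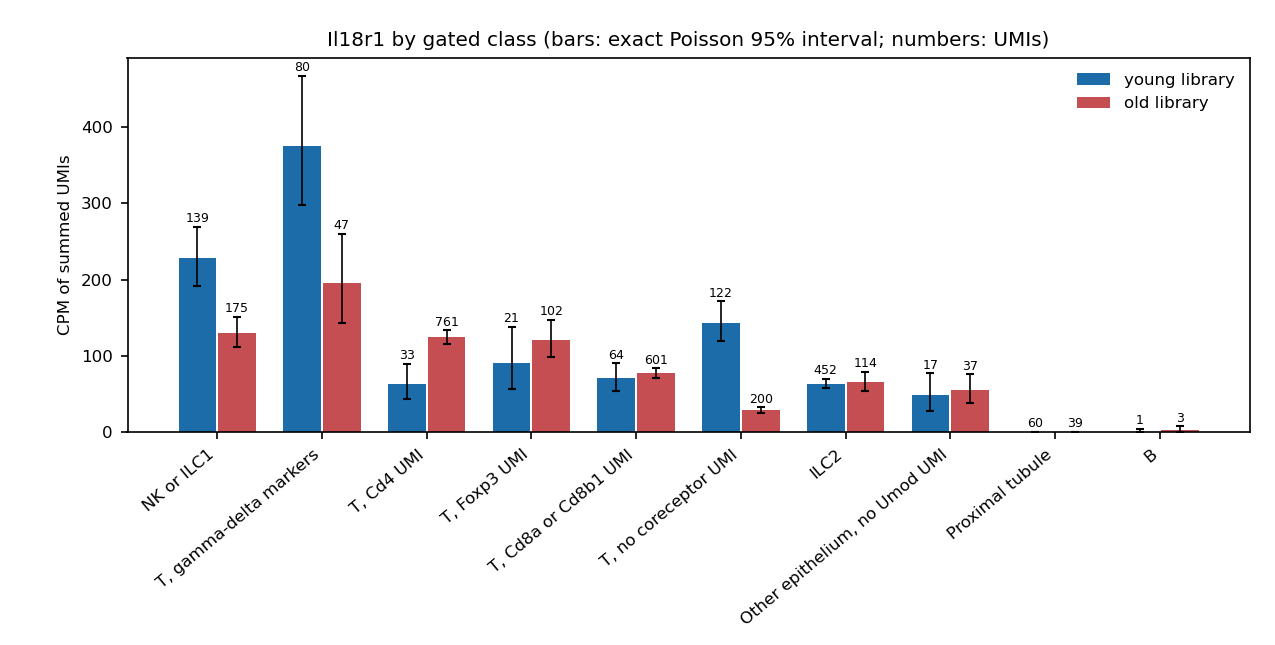
*Il18r1* in CPM of summed UMIs (y axis) by gated class in the young (blue) and old (red) library, with exact Poisson 95% intervals and the UMI count above each bar. T cells with *Cd4* were at 63.7 CPM (young) and 124 CPM (old), and T cells with no coreceptor UMI at 144 CPM and 28.5 CPM.

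Inside the ILC2 gate, the UMIs of *Il18r1* were held by few cells with several each. Its 452 young UMIs lay in 125 of 1292 cells and its 114 old UMIs in 39 of 325 cells, with a median of 3 and 2 in the cells that had any. *Il17ra* and *Crlf2*, of similar abundance there, had 348 and 323 young UMIs in 302 and 280 cells and 89 and 99 old UMIs in 76 and 81 cells, with a median of 1. In cells thinned to 1000 UMIs, *Il18r1* was seen in 0.668% (0.138 to 1.94) of 449 young cells with an *Il1rl1* UMI and in 5.21% (3.79 to 6.95) of 826 cells without one. The old shares were 2.16% (0.447 to 6.18) and 6.70% (3.51 to 11.4), and their intervals overlapped. *Il17rb* was seen in 14.5% (11.4 to 18.1) of young cells with an *Il1rl1* UMI and 15.4% (13.0 to 18.0) of those without, and in 14.4% (9.02 to 21.3) and 8.94% (5.20 to 14.1) of the old ones, with overlapping intervals in both libraries.

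The ILC2-gated cells with an *Il18r1* UMI carried other lymphocyte genes. *Il1rl1* was at 177 CPM in young cells with *Il18r1* and at 503 CPM in those without, and at 453 CPM and 760.4 CPM in the old library. *Ncr1*, the gene of the NK and ILC receptor NKp46, was at 408 CPM against 6.25 CPM in the young and 242 CPM against 6.12 CPM in the old library, from 37 of 125 and 8 of 39 cells. *Areg*, one of the gate markers, was lower in the cells with *Il18r1*, at 316 CPM against 1264 CPM in the young and 853 CPM against 2148 CPM in the old library. *Rora* and *Il7r* were lower with *Il18r1* in the young library, at 1280 CPM against 1428 CPM and 579 CPM against 772 CPM. In the old library they were higher, at 1854 CPM against 1484 CPM and 1151 CPM against 1060 CPM. The other gate markers were lower with *Il18r1* in both libraries, but not all of them beyond counting error. In the old cells with *Il18r1*, *Il5* and *Nmur1* had 1 UMI each, which supports no direction. *Il13* there was at 47.6 CPM (24.6 to 83.2) against 74.1 CPM (60.8 to 89.4), with overlapping intervals. *Trbc1*, a T cell receptor constant chain, was at 537 CPM against 104 CPM and at 838 CPM against 112 CPM, although the gate excluded cells with a CD3 UMI. *Trbc2*, the other constant chain, was nearer between these cells, at 497 CPM against 389.9 CPM and at 504 CPM against 375 CPM. These genes were looked up after the gates were made, and median UMIs per cell were 6590 with and 4934 without *Il18r1* in the young library and 6191 and 5300.5 in the old library.

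The *Il18r1* ratio in ILC2s moved with the way the cells were called. It was 0.05 (-0.26 to 0.35) in gated cells and 1.06 (0.58 to 1.51) in clusters named by the same markers, where 1758 young and 378 old cells held 134 and 57 UMIs, and 0.19 with 1 more marker in the gate. *Il1rl1* was at 0.70 and *Il17rb* at 0.12 in those clusters.

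**Figure D4:**
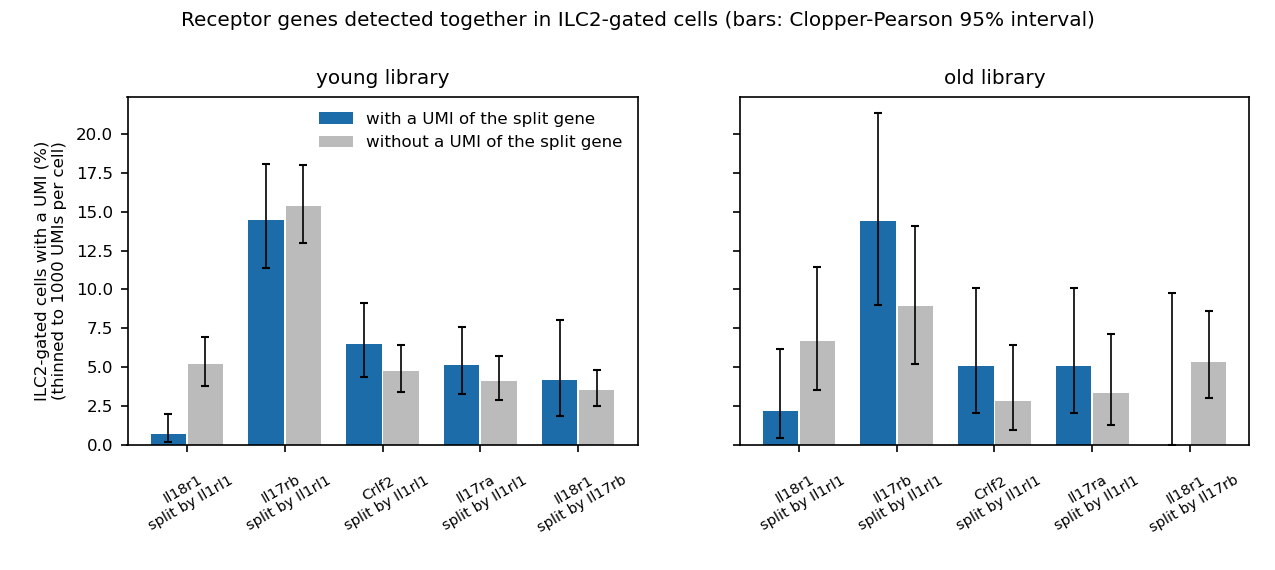
Percent of ILC2-gated cells with a UMI of a receptor gene (y axis) among cells with (blue) and without (grey) a UMI of a second receptor gene, with each cell thinned to 1000 UMIs and Clopper-Pearson 95% intervals, in the young (left) and old (right) library. *Il18r1* was seen in 0.668% of young cells with an *Il1rl1* UMI and in 5.21% of those without.

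*Il18r1* was also found in the other epithelium gate. Cells without a *Umod* UMI had 48.1 CPM (28.0 to 77.0) from 12 of 31 young cells and 54.9 CPM (38.7 to 75.7) from 16 of 40 old cells, and cells with *Umod* had 2.54 CPM and 1.57 CPM. This gate required no *Ptprc* UMI. The same cells without *Umod* held *Il18* at the levels given above.

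*Il1rap*, the accessory chain that ST2 and the IL-1 receptor share, was highest in neutrophils, at 129.7 CPM (105 to 158) in young and 101 CPM (84.1 to 119.9) in old cells. ILC2-gated cells had 7.75 CPM (5.84 to 10.1) and 11.6 CPM (7.09 to 17.9), so that neutrophils were 16.7-fold and 8.69-fold above them. PT cells had 4.21 CPM in both libraries, and the levels of T cells, B cells and macrophages or monocytes lay between 5.47 CPM and 9.35 CPM. The *Il1rap* level of ILC2-gated cells was thus near that of most classes, while *Il1rl1* there was far above its level in neutrophils, T cells, B cells, macrophages or monocytes and PT cells.

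*Il17ra*, the chain shared by the receptors of IL-25 and IL-17A, was found in all leukocyte classes of both libraries. Neutrophils were highest, at 326 CPM (286 to 369) and 341 CPM (309.7 to 375), and macrophages or monocytes had 170.0 CPM (152 to 189.6) and 205 CPM (192 to 219), a log2 ratio of 0.27 (0.09 to 0.46) that was 0.12 (-0.07 to 0.30) with 1 more marker in the gate, 0.57 (0.42 to 0.73) with clusters, 0.12 (-0.13 to 0.37) in cells with a Y-linked UMI and -0.054 (-0.41 to 0.32) in cells with *Xist*. ILC2-gated cells had 49.0 CPM (44.03 to 54.5) and 51.6 CPM (41.5 to 63.5), below T cells by log2 ratios of -0.44 (-0.71 to -0.18) and -0.76 (-1.08 to -0.45). Endothelial cells had 3.62 CPM and 8.69 CPM from 5 UMIs and 1 UMI, and other epithelial cells 14.7 CPM and 8.38 CPM. PT cells, at 25.0 CPM and 21.4 CPM, held 58.7% of the young and 22.8% of the old *Il17ra* UMIs. The T cells with no coreceptor UMI, in which *Il18r1* was lower in the old library, had *Il17ra* at 64.7 CPM (48.8 to 84.2) in young and 135 CPM (127 to 144) in old cells, a log2 ratio of 1.06 (0.67 to 1.48). In T cells with *Cd4* it was 79.1 CPM and 65.8 CPM, and the log2 ratio was -0.27 (-0.73 to 0.24).

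*Crlf2*, the TSLP receptor chain, was spread over leukocytes and endothelial cells. Macrophages or monocytes had 127 CPM (112 to 144) and 133 CPM (122 to 144), neutrophils 145 CPM and 135 CPM, and endothelial cells 108 CPM (91.4 to 127) and 156 CPM (92.7 to 247). Basophils or mast cells had 223 CPM and 206 CPM, from 18 and 15 UMIs in 17 and 9 cells. ILC2-gated cells were lower than all of these, at 45.5 CPM (40.7 to 50.8) in young and 57.4 CPM (46.7 to 69.9) in old cells. Their log2 ratio was 0.34 (-0.004 to 0.66), and 0.43 (0.11 to 0.74) with clusters in place of gates. It was 0.54 (0.10 to 0.96) in cells with a Y-linked UMI and -0.17 (-0.89 to 0.50) in cells with *Xist*. *Il7r*, whose product pairs with the TSLP receptor chain and is one of the ILC2 gate markers, was at 744 CPM and 1073 CPM in ILC2-gated cells and at 2.64 CPM and 19.6 CPM in macrophages or monocytes. In PT cells *Crlf2* was at 2.42 CPM (young) and 5.47 CPM (old).

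**Figure D5:**
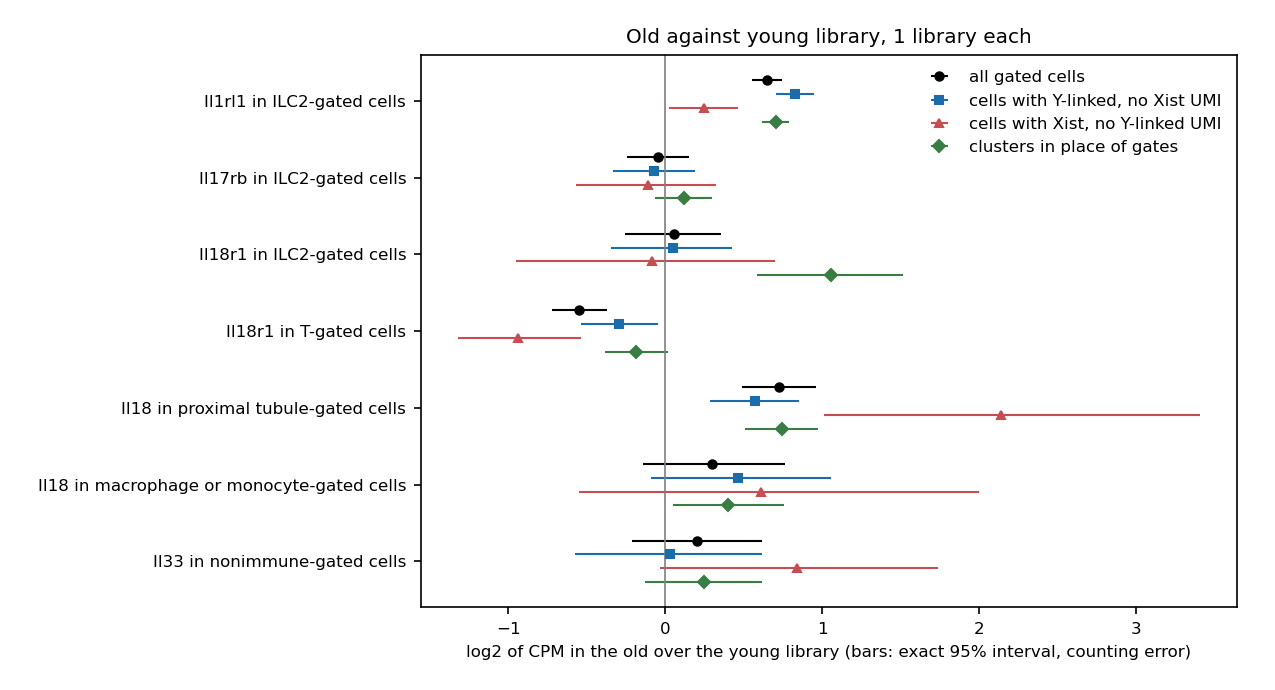
Log2 of CPM in the old over the young library (x axis) for the 7 main gene and class pairs, in all gated cells (black), cells with Y-linked UMIs but none of *Xist* (blue), the converse (red) and clusters in place of gates (green), with exact 95% intervals for counting error. *Il1rl1* in ILC2-gated cells was at 0.65, 0.83, 0.25 and 0.70, and *Il18r1* there moved from 0.05 in gated cells to 1.06 in clusters.

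Read against all genes with at least 100 UMIs in a class, few of the 10 genes were past 2-fold between the libraries. In ILC2-gated cells, where 3.85% of 7460 genes were past 2-fold (1.33% higher and 2.52% lower in the old library), 0 of the 5 genes with enough UMIs were, and their median log2 ratio was 0.07 against -0.05 for all genes. Among T cells, with 8.26% of 9697 genes past 2-fold (4.93% higher, 3.33% lower), 1 of 5 was, *Il1rl1*, which was lower by a log2 ratio of -1.67 (-2.21 to -1.11) in gated cells, -3.35 (-3.84 to -2.86) with clusters in place of gates and -2.57 (-3.81 to -1.12) in cells with *Xist*. Macrophages or monocytes had 7.24% of 6326 genes past 2-fold (4.27% higher, 2.97% lower) and 0 of 3 members. In PT cells, with 5.52% of 12359 genes past 2-fold (3.01% higher, 2.51% lower), *Crlf2* was higher with a log2 ratio of 1.18 (0.94 to 1.41) and *Il1rl1* lower with -1.73 (-2.35 to -1.15), out of 6, and both were at low levels there. The summed markers of T cells in these PT cells were at 12.9 CPM (young) and 26.9 CPM (old) and those of monocytes at 25.0 CPM (young) and 55.4 CPM (old), while those of macrophages were at 175 CPM (young) and 92.5 CPM (old). The part of other cells in the PT levels was not tested.

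The partner, signaling and processing genes of these cytokines, 31 in all, were read in the same way. ILC2-gated cells had 1 of 20 past 2-fold, where 3.85% of all 7460 genes were. It was *Casp1*, the protease that cleaves pro-IL-18, at 30.4 CPM (young) and 65.0 CPM (old). *Casp4*, another inflammatory caspase, had a log2 ratio of 0.76 (0.47 to 1.05) there, and the lowest values were those of *Il18rap* at -0.48 (-1.02 to 0.02) and *Sigirr* at -0.11 (-0.62 to 0.38). In T cells, where 4.93% of all genes were past 2-fold higher and 3.33% lower, 2 of 21 such genes were higher and 1 lower. The higher ones were *Casp4* at 1.14 and *Casp1* at 1.01. *Il18rap*, the accessory chain of the IL-18 receptor, was lower at -1.14 (-1.38 to -0.90), followed by *Irak2* at -0.27.

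In macrophages or monocytes 3 of 22 were past 2-fold, all higher in the old library, where 4.27% of all genes were. Macrophage markers summed there to 7727 CPM (young) and 11448 CPM (old) and monocyte markers to 20495 CPM (young) and 22179 CPM (old). Neutrophil markers summed to 94.0 CPM (young) and 225 CPM (old), and PT markers to 474 CPM (young) and 160 CPM (old). In neutrophils *Il1rn* was at 227 CPM (young) and 420 CPM (old). The part of this mixture was not tested. *Il1rn*, the IL-1 receptor antagonist, was at 6.86 CPM (young) and 119 CPM (old), *Irak3*, which restrains the signaling shared by these receptors, had a log2 ratio of 2.36 (1.84 to 2.92), and *Il18bp*, the secreted inhibitor of IL-18, was at 24.3 CPM (17.8 to 32.4) and 71.7 CPM (64.2 to 79.7). Of the 46 young *Il18bp* UMIs, 21 lay in 1 cell, and of the 337 old ones 49 did. The lowest values there were *Il1r2* at -0.51 and *Stat5b* at -0.36. PT cells had 3 of 21 past 2-fold higher, where 3.01% of all genes were, and none lower. *Il18bp* was at 1.95 CPM (1.70 to 2.22) in young and 12.1 CPM (11.2 to 12.9) in old PT cells. *Gsdmd* was at 0.317 CPM (young) and 1.03 CPM (old) and *Il1b* at 0.467 CPM (young) and 1.10 CPM (old), both low and beside the marker levels given above. The lowest log2 ratios in PT cells were *Il7r* at -0.83 and *Pycard* at -0.24. *Il18bp* was thus above *Il18* in old PT cells and below it in young ones.

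*Il18rap* sorted the *Il18r1* classes further. NK or ILC1 cells had 261 CPM (222 to 304) in young and 289 CPM (261 to 319) in old cells, so that *Il18rap* was level there while *Il18r1* was lower in the old library by a log2 ratio of -0.81 (-1.14 to -0.48). That ratio was -1.30 (-1.76 to -0.84) in cells with a Y-linked UMI and -0.37 (-1.22 to 0.59) in cells with *Xist*. T cells had 67.5 CPM and 30.6 CPM, and ILC2-gated cells 30.7 CPM (26.8 to 35.1) and 22.0 CPM (15.6 to 30.3). Neutrophils had *Il18rap* at 68.9 CPM and 97.7 CPM with *Il18r1* at 10.8 CPM and 6.30 CPM.

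Across 8 classes in 2 libraries, the genes whose log2(CPM + 1) was most like that of each member among 14641 genes were described by Pearson's r over 16 points, which share their library and depth. *Il1rl1* was nearest to *Ccdc184* at 0.95 and *Il17rb* to *Stab2* at 0.96, and the 2 receptors correlated with each other at 0.87. *Il1rap* was nearest to *S100a9* at 0.96, a neutrophil gene that is also a gate marker, *Crlf2* to *Nckap1l* at 0.99, *Il17ra* to *Rhog* at 0.96, *Il18r1* to *Vps28* at 0.94 and *Il18* to *Ptprj* at 0.94. *Il33* was nearest to *Rln1* at 0.96, but endothelial cells were not among the 8 classes because the old library held only 16. Among those 8 classes *Il33* was highest in the other epithelial cells of the old library, at 8.07 CPM, where 23 of its 26 UMIs lay in 1 cell. The part of that cell in the correlation was not tested.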

How the data were processed

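The authors ran Cell Ranger 3.1.0 (per the file headers) against mm10 on 10x 3′ v3.1 libraries, and the deposited values are UMI counts of each gene in each barcode. The matrices are neither normalized nor filtered on mitochondrial UMIs. Here, 15076 young and 12622 old barcodes were filtered as in the study (at least 200 genes, at most 20% mitochondrial UMIs), which left 145647185 and 119218130 UMIs. Doublets were called with Scrublet in Scanpy 1.11.5 (328 young, 246 old) and kept. The members and lists were chosen with earlier results of these data known, and the marker minimums of the gates after the UMI distributions had been seen. All 10 genes are named. The 3 nearest genes were computed per member, by Pearson's r over classes of at least 50 cells, and pathway examples were the 2 highest and 2 lowest log2 ratios.

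UMIs were summed per class and library and divided by the class total. Intervals are exact at 95% (Poisson for CPM, Clopper-Pearson for shares, binomial for ratios of 2 sums) and cover counting error only. A count of 0 allows 3 UMIs. With 1 library per age no test was made. Python 3.11.15, NumPy 2.4.6, SciPy 1.17.1, pandas 2.3.3 and Matplotlib 3.10.9 were used, and the scripts were tested on simulated data. Alternatives were stricter gates, clusters, doublets removed, 10% mitochondrial UMIs, 500 genes, means over cells, totals without abundant genes, the highest cell left out, cells by sex-linked UMIs, and other thinning depths. Gene positions come from the reference annotation (GRCm38). The flow cytometry and other assays of the study were not analysed here.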

Additional observations from a re-analysis of the deposited data

Results flagged for a closer look

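Several receptor genes differed between the old and young libraries in opposite directions in 2 classes, with each interval away from 0 and the difference between the classes not tested. *Il1rl1* had a log2 ratio of 0.65 (0.55 to 0.74) in ILC2-gated cells and -1.77 (-2.52 to -0.95) in T cells with a *Cd4* UMI. *Il17ra* had 1.06 (0.67 to 1.48) in T cells with no coreceptor UMI and -0.23 (-0.32 to -0.14) in proximal tubule cells. *Il18r1* had 0.97 (0.46 to 1.51) in T cells with *Cd4* and -2.33 (-2.67 to -1.997) in T cells with no coreceptor UMI.

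UMIs of the receptors were also present in barcodes that the filters removed, which no comparison used. The 3647 removed young barcodes held 105 UMIs of *Il1rl1* and 86 of *Il17rb*, and the 2390 removed old barcodes held 8 and 19. A single old cell that passed no gate held 16 UMIs of *Il33*.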

How the results depend on the processing

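Of 70 recomputed values of the 7 main log2 ratios, 60 stayed within the interval-based spread and 10 moved. No main ratio whose interval held a single sign changed sign, but some whose interval held both signs did. *Il33* in nonimmune cells went from 0.20 to -0.21 without the highest cell of each library. *Il18r1* in ILC2-gated cells went from 0.05 to -0.07 with called doublets removed. *Il17rb* in these cells went from -0.04 to 0.12 with clusters in place of gates. *Il1rl1* in ILC2-gated cells was 0.65 and became 0.83 in cells with a Y-linked UMI and 0.25 in cells with *Xist*. With clusters in place of gates, *Il18r1* went to 1.06 in ILC2s and to -0.19 in T cells, and in T cells it was -0.30 with a Y-linked UMI and -0.94 with *Xist*. *Il18* in proximal tubule cells was 2.14 with *Xist*. Means over cells gave 0.81 for *Il18* in macrophages or monocytes and -1.02 for *Il33* in nonimmune cells, which was 0.84 with *Xist*. Of 180 values for 18 other ratios, 166 stayed, 12 moved and 2 turned. Both that turned had a main interval of a single sign, and changes of sign where it held both signs were not counted as turned. In cells with *Xist*, *Il17ra* in macrophages or monocytes was -0.054 against 0.27, and *Il33* in endothelial cells -1.21 against 1.09. The causes were not tested. Shares of cells with a UMI moved with the thinning depth in 40 of 42 cases, and those set side by side at equal depth are at 1000 UMIs. No paired analysis was possible because there was 1 library per age. Outside proximal tubule cells, levels under about 1 CPM rest on few UMIs. Higher levels in small classes can do so too, such as *Il33* at 113 CPM in old endothelial cells from 13 UMIs. In young proximal tubule cells, *Il18r1* at 0.528 CPM came from 60 UMIs. Genes with 1 to 3 UMIs in a class support no direction.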
